A study of Mus musculus with 33 samples.

Results

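Mouse embryonic stem cells (ESCs) that lack the 3 members of the HP1 family were compared here with wild-type ESCs. The 6 libraries of this comparison, 3 labelled as Hp1α/β/γ triple knockout (TKO) and 3 labelled wild type, were taken from 33 RNA-seq libraries in 11 groups of 3, and every gene of their deposited table was considered. The rule that chose them is the group label, so no expression value entered the choice. Wild-type libraries exist in 2 sets, and the 3 used here are those of set A, which share their table with the TKO libraries. All groups are ESCs of strain C57BL/6 grown on mouse embryonic fibroblast feeders, which the study removed by letting dissociated cells settle on gelatin for 30 min. The study made its Hp1α and Hp1β knockouts with pairs of CRISPR/Cas9 guides. TKO cells were obtained from Hp1α/β-null cells with a floxed Hp1γ gene by transfection of Cre recombinase, with an assay after 72 h. A figure legend of the study gives the same cells with a control vector as the control, whereas the labels of the control libraries give wild type. Further comparisons used Hp1α/β double knockout ESCs (DKO, constitutive knockouts, 3 libraries), and Setdb1 knockout cells with their floxed Setdb1 parents (3 libraries each).

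HP1 proteins bind the tail of histone H3 methylated at lysine 9 (H3K9me) through a chromodomain, and through a chromoshadow domain they dimerise and recruit partner proteins. They are known for the compaction and silencing of heterochromatin, and HP1γ is found in euchromatin as well. In ESCs, H3K9 methylation set by SETDB1 and its relatives keeps retrotransposons, germline genes and multigene clusters silent.

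The guides that the study designed to delete the Hp1 genes are shown here. In TKO cells the floxed Hp1γ gene was removed by Cre, so the HP1γ pair does not define that allele. Each protein had 1 guide upstream and 1 downstream of the part to be removed, written 5′ to 3′, and the capitals mark the 3 bases that follow the guide, which form its PAM, where a site was found.
HP1α upstream guide: ctcgccagttctgccgagat
HP1α downstream guide: ggctgagtgagaactagtag
HP1β upstream guide: tactaggaaagtctagcgatTGG
HP1β downstream guide: tcttgcatagaagcctaggc
HP1γ upstream guide: gaggtgcttacactggatca
HP1γ downstream guide: tatgatagccttgccgagcg
Only annotated transcripts of the 3 genes could be searched, 17 in all, so a guide within an intron has no site there. The upstream HP1β guide was found in 1 transcript, a retained-intron transcript of Cbx1 at chr11:96801311-96801330 of GRCm38 on the plus strand. That site lies within 3 protein-coding transcripts of Cbx1 and in an exon of 0 of them. The other 5 guides were not placed.

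Expression was measured as counts per gene and is given as counts in 1 M counts of the scaled library (CPM), which compares a gene between libraries but not genes of unequal length. The 3 TKO libraries held 17330936 to 21351305 counts and the 3 wild-type libraries 20627149 to 21668932 counts. At least 1 count was found for 24975 to 25576 genes in a TKO library and for 21639 to 21673 genes in a wild-type library. The summed level of 7 ESC markers was 2896 to 2915 CPM in wild-type libraries and 1436 to 1477 CPM in TKO libraries, so ESC markers were found in both. Pou5f1, Sox2, Nanog, Dppa5a and Utf1 had lower means in TKO libraries. Means in wild-type and TKO libraries were 64.3 and 66.0 CPM for Zfp42 and 357 and 418 CPM for Esrrb, so the markers did not all fall. The sum does not show whether TKO cells kept ESC identity. The labels do not say that libraries of a group came from separate cultures, so if they did not the p-values measure technical spread only, while the methods speak of independent experiments. RNA was taken from bulk cells, in which fewer cells that express a gene and less RNA per cell cannot be told apart.

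The 3 targeted genes were examined first. Cbx1, which encodes HP1β (ENSMUSG00000018666, chromosome 11, 96789127 to 96808640 of GRCm38), was at 467, 484 and 487 CPM in the wild-type libraries and at 47.1, 48.6 and 52.96 CPM in the TKO libraries. The groups did not overlap, and Cbx1 fell by 3.27 on the log2 scale (standard error 0.037, adjusted p = 1.51e-22 in edgeR's quasi-likelihood test). Cbx3, which encodes HP1γ, was at 202, 189 and 189.5 CPM in wild-type and 66.2, 70.5 and 71.1 CPM in TKO libraries, again without overlap, with a log2 difference of −1.48 (adjusted p = 4.54e-17). Cbx5, which encodes HP1α, went from 532, 523 and 533 CPM to 299, 301 and 308 CPM, a log2 difference of −0.81 (adjusted p = 1.33e-16) that did not reach the threshold used here. Transcripts that lack the deleted part still give counts, so these levels are not levels of protein. Against DKO ESCs the differences in TKO cells were −1.09 for Cbx1, −1.55 for Cbx3 and 0.44 for Cbx5. Cbx1 was at 105.1, 107 and 103 CPM in the 3 DKO libraries, so the wild-type libraries carried Cbx1 at a level that DKO cells lacked. A gene was called in a comparison, and is written to have risen or fallen, where the adjusted p was under 0.05 and the log2 difference over 1 in size. With 3 libraries a side, no exact permutation test can give a p under 0.1, and all p-values rest on the spread shared across genes.

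**Figure D1:**
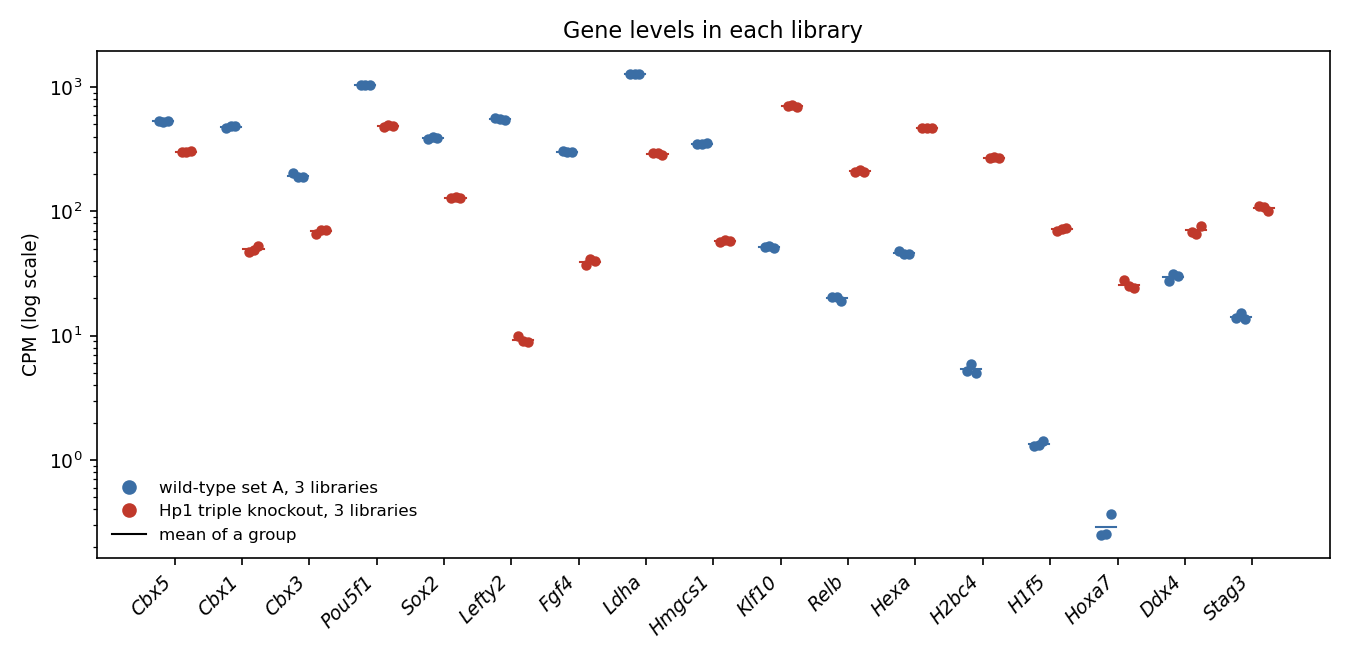
CPM (y axis, log scale) of 17 genes (x axis) in each of the 3 wild-type and the 3 TKO libraries (points), with a line at each group's mean. The 3 libraries of a group lay close together, Cbx1 was near 480 CPM in wild-type and near 50 CPM in TKO libraries, and the groups did not overlap for any gene drawn.

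Of 17501 genes tested between TKO and wild-type cells, 7400 were called (42.3%), of which 4401 were higher (25.1%) and 2999 lower (17.1%) in TKO cells. For 14544 genes (83.1%) the 6 libraries separated by group with no overlap, so lack of overlap says little about a single gene here. Higher calls were 59.47% of all calls when libraries were scaled by TMM, with a median log2 difference of 0.035 over all genes. With library totals alone, an alternative chosen after seeing the data, they were 71.39% of calls and the median was 0.2826, so every direction below is relative to TMM scaling. Protein-coding genes were tested in 14954 cases, with 3150 higher and 2670 lower calls. Of 572 long intergenic noncoding RNA genes 322 rose and 62 fell, and of 443 antisense genes 232 rose and 49 fell. Their median log2 differences were 1.43 and 1.18. Over the 326 and 227 of them with at least 10 counts in each wild-type library the medians were 0.41 and 0.38, so these counts rest partly on genes with few wild-type counts. Strand was not stated for the counting, so antisense genes cannot be told from their partners.

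Many of the genes that rose were silent or nearly silent in wild-type cells. No count was found in 3 wild-type libraries for 200 genes that had at least 10 counts in each TKO library, and 118 of them were protein-coding. The reverse held for 1 gene, the mitochondrial mt-Nd3. At a wild-type mean between 0.1 and 1 CPM, 1617 of 2528 tested genes rose and 104 fell, whereas between 100 and 1000 CPM 79 of 2357 rose and 547 fell. Above 1000 CPM, 0 of 103 genes rose and 37 fell (35.9%), with a median log2 difference of −0.78. A gene that passed the filter on low counts only through the TKO libraries had to be higher there. Counts over gene groups below therefore concern members with at least 10 counts in each wild-type library. Among all 14958 such genes 16.1% were called higher and 19.9% lower, with a median log2 difference of −0.16, and these values are the background for each group.

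**Figure D2:**
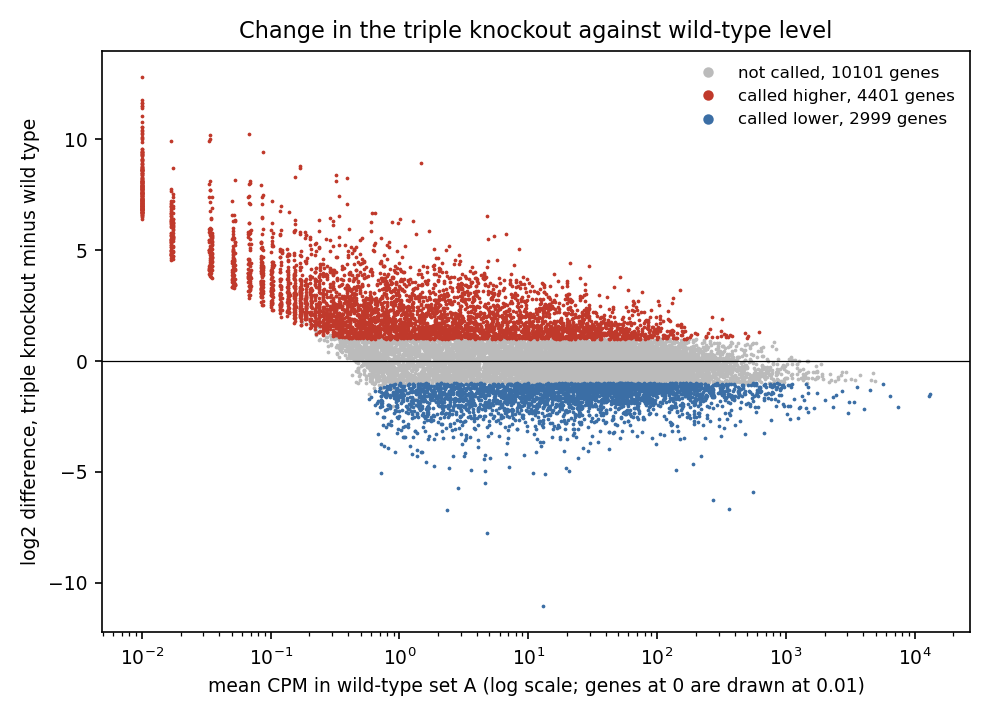
Mean wild-type level (CPM, log axis, genes without a count drawn at the left edge) against the log2 difference between TKO and wild-type cells, 1 point for each of 17501 genes. The 4401 higher calls reach down to genes without a wild-type count, whereas the 2999 lower calls begin at higher wild-type levels, as the filter on low counts requires.

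The largest rises by rule were all in genes without a count in wild-type libraries, so their size is a lower bound against a floor of 3 counts in a library, which is 0.154 CPM in wild type. Nr4a3 (ENSMUSG00000028341, chromosome 4, 48045153 to 48086447), an orphan nuclear receptor of the immediate early type, was at 45.2, 43.0 and 43.0 CPM in the 3 TKO libraries, at least 285-fold higher than in wild type. Vmn1r9, a vomeronasal receptor gene, stood at 20.9, 19.3 and 19.204 CPM, at least 129-fold higher. Apol7c, of the apolipoprotein L family, stood at 16.9, 20.2 and 20.7 CPM, at least 125-fold higher. All 3 genes were thus without a count in every wild-type library and detected in every TKO library. They were followed by H2-M2, a class Ib major histocompatibility gene (at least 70.6-fold), the zinc finger factor gene St18 (at least 60.2-fold) and the olfactory receptor gene Olfr1510 (at least 54.5-fold). The last 4 of the 10 were Trpv1, which encodes the capsaicin-gated ion channel (at least 52.3-fold), Olfr417 (at least 49.3-fold), Zscan4f, a gene of 2-cell embryos (at least 42.9-fold), and Pthlh, which encodes parathyroid hormone-like hormone (at least 37.3-fold).

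Among genes with a mean of 5 CPM or more in wild-type cells and counts in both genotypes, the largest fall was that of Lefty1, an extracellular inhibitor of Nodal (ENSMUSG00000038793, chromosome 1, 180935022 to 180938400), from 356, 362 and 364 CPM in wild-type to 2.93, 3.66 and 3.92 CPM in TKO libraries, which was 102-fold (adjusted p = 2.11e-24). Its neighbour Lefty2 went from 563, 555 and 543 CPM to 9.93, 9.13 and 8.83 CPM, 59.6-fold lower (adjusted p = 2.07e-25). Trh, the gene of thyrotropin-releasing hormone, went from 269, 275 and 270.1 CPM to 3.70, 5.20 and 2.02 CPM, 76.6-fold lower (adjusted p = 3.30e-20). The lowest wild-type library exceeded the highest TKO library by a wide margin for each of the 3. Pck2, the mitochondrial phosphoenolpyruvate carboxykinase, was 30.4-fold lower, A2m, a protease inhibitor, 33.5-fold lower and the long noncoding RNA Miat 30.9-fold lower. Gbp2, an interferon-inducible GTPase, was 28.6-fold lower. Usp26, an X-linked ubiquitin protease gene, was 25.2-fold lower than in wild type, but it was already lower in DKO ESCs by −5.17 on the log2 scale and stood at 0.50 between TKO and DKO cells. The mitochondrial mt-Nd3 had 173, 221 and 364 counts in the wild-type libraries and 0 in each TKO library, at least 90.4-fold lower.

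In terms of CPM gained, the largest rises were in 2610005L07Rik (from 149.6 ± 3.51 to 1369.7 ± 18.9 CPM, SD, n = 3 each) and Dhx9, an RNA helicase (from 618 ± 3.53 to 1517 ± 43.2 CPM). They were followed by Lamp1, a lysosomal membrane protein (from 321 ± 5.08 to 1199 ± 29.1 CPM), Gm21811 (from 132 ± 3.01 to 929 ± 22.5 CPM) and Brd2, a reader of acetylated histones (from 269 ± 4.65 to 1054 ± 13.5 CPM). Genes 2610005L07Rik and Gm21811 lie in the same cluster of related gene models on chromosome 8, so reads may be split between them and their levels are uncertain. The largest losses of CPM were in mt-Co1 (from 12925 ± 296 to 4398 ± 128 CPM), the elongation factor gene Eef1a1 (from 13225 ± 182 to 4754 ± 51.5 CPM) and mt-Nd4. The chaperone gene Hsp90ab1 went from 6486 ± 125 to 2188 ± 7.17 CPM, and Gm28661, a gene model in a chromosome 1 stretch that resembles mitochondrial DNA, from 4063 ± 51.9 to 896 ± 36.7 CPM. Reads of the last of these cannot be told apart from mitochondrial reads.

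**Figure D3:**
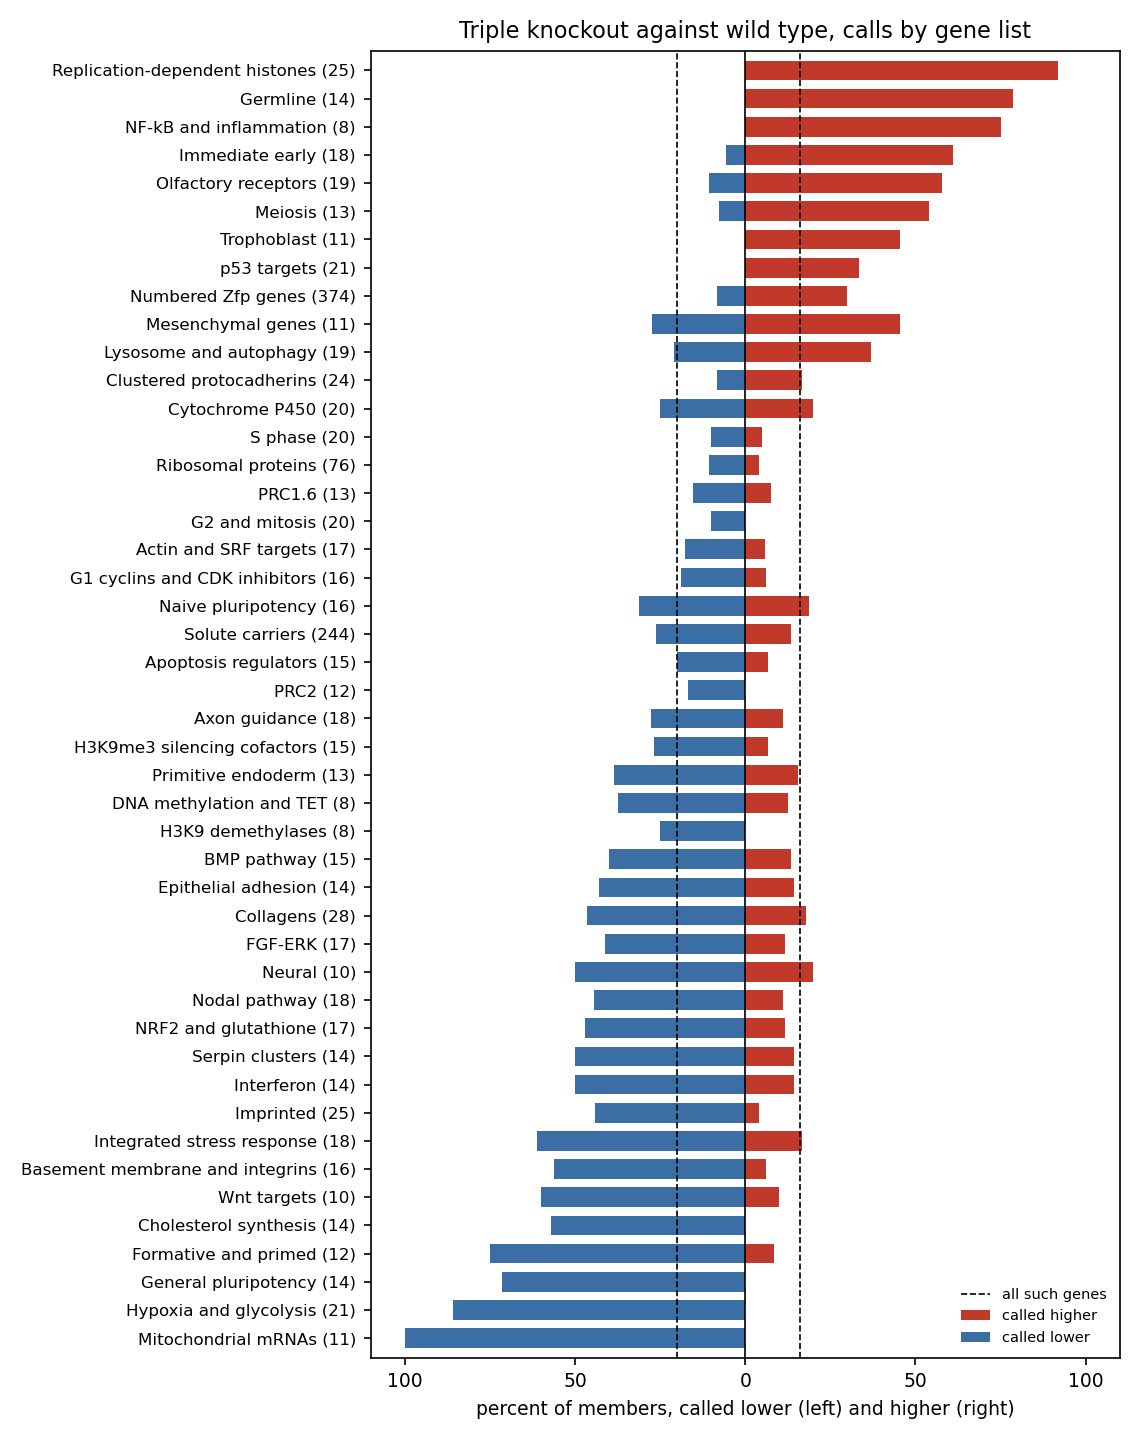
Percentage of members called lower (left) and higher (right) in TKO against wild-type cells for 46 gene groups, over members with at least 10 counts in each wild-type library. Dashed lines mark 16.1% higher and 19.9% lower, the shares over all such genes. Histone, germline and NF-kB genes stand at the top on the higher side and mitochondrial and hypoxia genes on the lower side.

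Genes that keep ESCs pluripotent were largely lower in TKO cells. Of 14 genes of general pluripotency 10 fell and 0 rose, with a median log2 difference of −1.31, and of 12 genes of the formative or primed state 9 fell and 1 rose (median −1.69). Of 16 genes of naive pluripotency 5 fell and 3 rose (median −0.73). Pou5f1, which encodes OCT4, was at 1045, 1045 and 1034 CPM in wild-type and 479.8, 497 and 486 CPM in TKO libraries, a log2 difference of −1.09 (adjusted p = 2.62e-19). Sox2 was at 384, 396 and 386 CPM and 128, 130.5 and 128 CPM, a log2 difference of −1.59 (adjusted p = 4.77e-20). Nanog was at 219, 227 and 228 CPM and 77.3, 80.4 and 81.0 CPM, a log2 difference of −1.498 (adjusted p = 4.15e-18). For these 3 core factors no wild-type library reached down to a TKO library. The difference of Pou5f1 was −0.81 against wild-type set B and −0.85 with library totals alone, both short of the threshold. Fgf4, a growth factor that OCT4 and SOX2 activate together, fell from 303, 302 and 299 CPM to 36.9, 41.7 and 39.6 CPM (log2 −2.94, adjusted p = 1.31e-21). Tdgf1, the Nodal co-receptor also called Cripto, fell from 1075 ± 15.9 to 174 ± 3.79 CPM.

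Among naive genes Gbx2 fell (−2.80 on the log2 scale) and Klf2 fell (−2.31), whereas Dppa3, a maternal factor also named Stella, rose from 23.5 ± 0.802 to 72.4 ± 1.15 CPM and Fbxo15 rose (1.07). Gbx2 stood at −1.66 between DKO and wild-type ESCs. Esrrb, an orphan nuclear receptor of the naive state, stood at 357, 361 and 352 CPM in wild-type and 416, 420.1 and 419 CPM in TKO libraries, with a difference of 0.23 that was not called. Naive genes therefore did not move as 1 group. Of the formative genes Tcf15 fell from 42.6 ± 1.81 to 4.59 ± 0.264 CPM, Lef1 fell (−2.30) and Otx2 fell (−1.56), while Sall2 rose (1.602). Otx2 was higher in DKO ESCs than in wild type, by 1.998, and its difference between TKO and DKO cells was −3.57.

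Genes of 4 signalling pathways were examined by their roles. Nodal, a TGF-β family ligand, signals through activin receptors and the co-receptor Cripto to SMAD proteins and FOXH1, and the Lefty genes are its targets and inhibitors. Of 18 Nodal pathway genes 8 fell and 2 rose (median −0.98). The ligand gene Nodal stood at 54.2, 52.6 and 57.0 CPM in wild-type and 27.3, 28.7 and 26.3 CPM in TKO libraries, a difference of −0.995 that lay at the threshold and was called with some libraries left out. The receptor gene Acvr2a rose from 17.1 ± 0.909 to 41.0 ± 1.68 CPM and Foxh1 from 35.8 ± 3.61 to 111 ± 5.53 CPM. The co-receptor gene Tdgf1 fell (−2.63), and so did the target genes Lefty1 and Lefty2.

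Of 17 genes of fibroblast growth factor signalling to ERK 7 fell and 2 rose (median −0.42). Its ligand Fgf4 fell, and so did its feedback inhibitor Spry4, from 117 ± 1.31 to 19.3 ± 1.30 CPM, and its target Etv5, from 443 ± 10.8 to 104 ± 3.05 CPM. Of 15 BMP pathway genes 6 fell and 2 rose (median −0.19), with 3 in place of 6 lower against wild-type set B. The ligand Bmp4 rose from 5.48, 5.01 and 4.90 CPM to 23.1, 22.7 and 22.7 CPM (2.15), and stood 1.02 above wild type in DKO ESCs. Its target Msx2 rose (2.56) while the target Id1 fell (−1.76), and Id1 was not called against set B at −0.82. Between DKO and wild-type ESCs Id1 stood at −1.31. Of 10 Wnt target genes 6 fell and 1 rose (median −1.55). The secreted Wnt inhibitor Notum fell from 11.1 ± 0.736 to 1.15 ± 0.162 CPM, Ccnd1, which encodes cyclin D1, fell from 149 ± 4.13 to 26.3 ± 0.372 CPM and Myc fell from 58.5 ± 1.13 to 12.5 ± 1.75 CPM. Axin2, a feedback inhibitor of the same pathway, rose from 4.02 ± 0.394 to 11.7 ± 0.887 CPM, and the low-level homeobox gene Cdx1 was higher as well (1.602). Axin2 stood at 1.43 between DKO and wild-type ESCs and at 0.09 between TKO and DKO cells.

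Lineage genes started from very low levels. Primitive endoderm arises beside the pluripotent epiblast, and its factors Gata4 and Gata6 are off in ESCs. Gata4 was at 0.804, 0.809 and 1.002 CPM in wild-type and 10.3, 9.71 and 10.2 CPM in TKO libraries, a log2 difference of 3.53 (adjusted p = 2.65e-12). Every TKO library exceeded every wild-type library for Gata4, and Gata6 (3.50) and Sox17 (2.99) rose too. The basement membrane genes of the same lineage, which ESCs transcribe as well, went down, with Lama1 at −1.96 and Lamc1 at −1.94. Between DKO and wild-type ESCs Lama1 stood at −1.01 and Lamc1 at −0.24. Of 13 primitive endoderm genes with at least 10 counts in each wild-type library 5 fell and 2 rose, and the number that fell was 3 with library totals alone.

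Of 11 trophoblast genes 5 rose and 0 fell (median 0.82). The simple keratin genes Krt8 and Krt18 rose from 62.5 ± 1.53 to 135 ± 5.02 CPM and from 47.3 ± 3.64 to 105.1 ± 1.05 CPM, but they were higher still in DKO ESCs, by 2.04 and 1.94 over wild type. Against wild-type set B neither was called, at 0.37 and 0.35, and the number of tested trophoblast genes called higher went from 8 to 4. Gata2 rose (1.94), with 1.34 between DKO and wild-type ESCs. Cdx2 stood at 0.1005, 0.304 and 0.158 CPM in wild-type and 0.864, 0.796 and 1.08 CPM in TKO libraries. Of 10 neural genes 5 fell and 2 rose, among them Sox11 (from 124 ± 3.65 to 25.6 ± 2.72 CPM) and Map2 (from 34.9 ± 0.853 to 5.73 ± 0.727 CPM) on the lower side, and Zic1 (3.68) on the higher side. Map2 stood at −1.32 between DKO and wild-type ESCs. Of 6 mesoderm genes 2 rose and 2 fell. Wnt3, a primitive streak ligand, rose (1.90), with 1.48 between DKO and wild-type ESCs. Kdr, the VEGF receptor of blood and vessel precursors, fell (−2.41), with a fall in DKO ESCs of the same order (−2.67).

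Hox genes, which give cells their position along the body axis and are held silent in ESCs by Polycomb proteins, were switched on in all 4 clusters. The summed level of the 24 tested Hox genes was 3.92 to 5.01 CPM in wild-type libraries and 76.5 to 84.6 CPM in TKO libraries. Of 39 Hox genes 24 were tested, 22 were called higher and 0 lower, but only 1 had at least 10 counts in each wild-type library, so the count is a description. Hoxa7 (ENSMUSG00000038236, chromosome 6, 52214491 to 52221854) was at 0.251, 0.253 and 0.369 CPM in wild-type and 27.9, 25.0 and 24.1 CPM in TKO libraries (6.44, adjusted p = 8.59e-17). Hoxa3 and Hoxa2 had no count in wild-type libraries and were at least 22.1-fold and 14.0-fold higher. Hoxd10 had 2 counts in the wild-type libraries together and stood at 5.04, 5.78 and 6.50 CPM in the TKO libraries. Hoxd13 (2.44) and Hoxc13 (3.02) were higher too.

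Germline genes rose as a group. Of 14 germline genes 11 rose and 0 fell (median 1.48), and of 13 meiosis genes 7 rose and 1 fell (median 1.22). Tex101, which encodes a germ cell surface protein, stood at 0.653, 0.304 and 0.369 CPM in wild-type and 13.9, 14.4 and 14.7 CPM in TKO libraries (4.997, adjusted p = 4.50e-14), and Slc25a31, the testis form of the mitochondrial ADP/ATP carrier, at 0.502, 0.455 and 0.422 CPM and 6.67, 7.75 and 9.34 CPM (4.09, adjusted p = 1.96e-11). Ddx4, the germ cell helicase also named Vasa, went from 27.5, 31.3 and 30.1 CPM to 68.0, 66.3 and 76.3 CPM (1.25, adjusted p = 1.24e-12). Ddx4 was below wild type in DKO ESCs (−1.32), so the difference between TKO and DKO cells was 2.56. Mael and Mov10l1, which act in the piRNA pathway, rose by 1.94 and 2.96, the testis TFIID subunit Taf7l by 2.79 and the RNA-binding factor Dazl by 1.85. Of meiosis genes Stag3, a meiotic cohesin subunit, rose from 13.9, 15.2 and 13.6 CPM to 110.2, 109 and 101 CPM (2.90, adjusted p = 1.04e-18). Syce1, a part of the synaptonemal complex, rose by 2.95. The exception was the meiotic recombinase gene Dmc1, which fell from 53.8 ± 5.35 to 16.3 ± 2.27 CPM. Stra8, which starts meiosis, stood at 1.61, 3.84 and 2.90 CPM in wild-type and 4.37, 5.57 and 4.87 CPM in TKO libraries and was not called (0.82). It was called higher against set B (1.03) and with library totals alone (1.07).

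Genes of the 2-cell embryo, the stage of zygotic genome activation, were nearly absent from wild-type libraries and present in TKO libraries. Of 24 such genes 15 were tested and all 15 were called higher, 0 of them with 10 counts in each wild-type library. Their summed level was 0.0502 to 0.105 CPM in wild-type and 31.1 to 32.7 CPM in TKO libraries. Zscan4c was at 3.79, 4.72 and 4.09 CPM and Zscan4e at 3.84, 3.40 and 2.76 CPM in the TKO libraries, at least 27.4-fold and 21.7-fold higher. Duxf3, of the Dux factors that drive this program, was at 1.25, 0.955 and 1.25 CPM, and Zfp352 at 1.34, 0.637 and 0.818 CPM. The Zscan4 copies are nearly identical, so single members are uncertain. Within bulk RNA, a low level in all cells and a high level in a few cannot be told apart.

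Clustered families of chemosensory receptors, which sensory neurons use, had few or no counts for most genes. Of 1117 olfactory receptor genes 673 had no count in any of the 6 libraries and 57 were tested, of which 44 rose and 2 fell. Over the 19 with at least 10 counts in each wild-type library 11 rose and 2 fell (median 1.12). The summed level of all 57 tested, 38 of them without these counts, was 45.5 to 49.0 CPM in wild-type and 173 to 181 CPM in TKO libraries. Olfr681 went from 0.0502, 0.253 and 0.0527 CPM to 13.8, 13.6 and 13.8 CPM. Of the vomeronasal receptors 5 of 6 Vmn2r genes and 1 of 6 Vmn1r genes rose and 0 fell. Vmn2r27 had 20.6, 23.0 and 20.8 CPM in wild-type and 104.6, 97.9 and 113 CPM in TKO libraries (2.29). Vmn2r7 (5.03) and Vmn1r88 (2.72) rose as well. Since members of these families share sequence, reads may be split between them.

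Zinc finger genes with a numbered Zfp symbol, many of which encode KRAB repressors of retrotransposons, were tested in 385 of 402 cases. Of 374 with at least 10 counts in each wild-type library 112 rose and 31 fell (median 0.45), against the background of 16.1% and 19.9%. Zfp938 rose from 5.07, 5.56 and 7.12 CPM to 77.3, 77.8 and 85.0 CPM (3.76, adjusted p = 3.67e-18), and Zfp503 from 0.221 ± 0.114 to 6.30 ± 0.603 CPM, whereas Zfp872 (−3.49) and Zfp575 (−2.35) fell. Of 24 clustered protocadherins, which give neurons surface identity, 4 rose and 2 fell. Pcdha6 rose from 1.499 ± 0.124 to 16.5 ± 2.35 CPM and Pcdhb14 from 0.292 ± 0.136 to 5.06 ± 0.360 CPM, while Pcdhga11 fell (−1.22), a fall of 0.97 and not called with library totals alone. Pcdhb6 had 3 counts and Pcdhb7 had 2 counts in the wild-type libraries together, and they stood at 2.98, 2.55 and 2.76 CPM and 0.912, 0.955 and 1.42 CPM in the TKO libraries. Of 20 cytochrome P450 genes 4 rose and 5 fell, and Cyp2b23 rose from 2.96 ± 0.326 to 67.5 ± 2.07 CPM with most of that rise present in DKO ESCs (4.19). Of 14 serpin genes 2 rose and 7 fell, from Serpinf2 (0.0679 ± 0.0282 to 10.4 ± 1.18 CPM) to Serping1, the complement C1 inhibitor (17.8 ± 0.318 to 1.59 ± 0.590 CPM). Of 244 solute carrier genes 33 rose and 64 fell, and of 4 Mage genes 3 rose and 0 fell. The 3 Rhox genes at this level were not called (median 0.19).

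Replication-dependent histone genes, which supply nucleosomes in S phase and whose mRNAs end in a stem-loop in place of a poly(A) tail, were higher in TKO cells with few exceptions. Of 25 such genes 23 rose and 0 fell (median 2.78), and of all 56 tested 54 rose and 0 fell. Of these 56 genes 31 lacked 10 counts in each wild-type library and all 31 were called higher, so the count over 56 is a description. The summed level of all 56 was 66.2 to 73.3 CPM in wild-type and 855 to 877 CPM in TKO libraries. H2bc4 went from 5.22, 5.92 and 5.01 CPM to 269, 276 and 267 CPM (5.65, adjusted p = 1.40e-23). The linker histone gene H1f5 went from 1.31, 1.32 and 1.42 CPM to 69.6, 72.2 and 72.9 CPM (5.72, adjusted p = 1.73e-20). No wild-type library came near a TKO library for either gene. H2aw rose by 4.56 and H4c9 by 1.99, H2ac12 had no count in wild type and was at least 16.9-fold higher, and H2ac1, with 2 counts in the wild-type libraries together, stood at 10.1, 10.6 and 12.2 CPM. H3c3 stood at 0.91 and was not called, but was called with library totals alone (1.15). The level of these mRNAs depends on the RNA selected for sequencing, and here the labels name a TruSeq RNA kit while the methods name a kit for total RNA. Of 5 tested genes for noncoding RNAs that reflect RNA selection and quality 1 was called higher, Rn7sk, at 0.502, 0.658 and 0.527 CPM in wild-type and 2.83, 2.07 and 1.77 CPM in TKO libraries. Against wild-type set B Rn7sk was lower (−1.34), and 0 of these RNAs were higher and 3 lower. Between DKO and wild-type ESCs Rn7sk stood at 1.76. Malat1, a nuclear RNA, stood at −0.66 and was not called, but it was called lower against set B, at −1.08. Histone mRNAs are also made in S phase, and of 20 S phase genes 1 rose and 2 fell (median −0.17). The part of RNA selection and of cell cycle in the histone levels was not tested.

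mRNAs from mitochondrial DNA, which encode subunits of the respiratory chain, were lower. Of 11 with at least 10 counts in each wild-type library 11 fell (median −2.33). The summed level of all 12 tested was 28131 to 29613 CPM in wild-type and 7873 to 8482 CPM in TKO libraries. Transcripts of mt-Nd4 were at 7333, 7491 and 7271 CPM in wild-type and 1728, 1685 and 1892 CPM in TKO libraries (−2.06), but against wild-type set B the difference was −0.15 and not called. Transcripts of mt-Co1 (−1.56) and mt-Cytb (−1.62) were called against both sets, at −1.47 and −1.59 against set B. For mt-Co3 the groups overlapped, with 201, 183 and 0.0527 CPM in wild-type and 0, 58.4 and 0.129 CPM in TKO libraries, and the call was lost with DESeq2 (adjusted p = 0.42). Of 13 such mRNAs 1 had no count in any of the 6 libraries. Levels of single mitochondrial genes are therefore uncertain, and how reads were assigned among them was not tested. Of 76 ribosomal protein genes 8 fell and 3 rose (median −0.65). All 77 tested summed to 61543 to 61824 CPM in wild-type and 39496 to 40695 CPM in TKO libraries. The number that fell was 20 against set B and 2 with library totals alone. Rps25 (−1.46) and Rps27 (−1.25) fell, and Rpl12 (1.69), Rpl3l (1.71) and the testis paralogue Rpl39l (4.02) rose, the last of them already in DKO ESCs (3.72).

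Metabolic genes fell in several pathways. Of 21 genes of glycolysis and the response to low oxygen 18 fell and 0 rose (median −1.87). The summed level of all 22 tested was 13511 to 13678 CPM in wild-type and 5058 to 5269 CPM in TKO libraries. Ldha, lactate dehydrogenase A (ENSMUSG00000063229, chromosome 7, 46841475 to 46855627), went from 1278, 1268 and 1279 CPM to 293, 296 and 285 CPM (−2.13, adjusted p = 4.19e-23). Pgk1, phosphoglycerate kinase, went from 969, 942 and 956 CPM to 252, 259 and 244 CPM (−1.93, adjusted p = 1.05e-21). The mitophagy receptor Bnip3 fell from 112 ± 2.55 to 11.2 ± 0.906 CPM and Ndufa4l2, a hypoxia-inducible mitochondrial gene, from 4.61 ± 0.442 to 0.151 ± 0.111 CPM. The neuronal glucose transporter gene Slc2a3 stood apart at 0.81, not called, and had been higher in DKO ESCs (1.91). With library totals alone it was called higher, at 1.06.

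Of 14 cholesterol synthesis genes 8 fell and 0 rose (median −1.52). The synthase gene Hmgcs1 went from 347, 351 and 356 CPM to 56.9, 58.7 and 58.0 CPM (−2.60, adjusted p = 2.69e-22). Of 18 genes of the integrated stress response, which ATF4 directs when translation is limited, 11 fell and 3 rose (median −1.37). The asparagine synthetase gene Asns fell from 373 ± 6.69 to 80.0 ± 3.51 CPM, Nupr1 from 30.03 ± 1.97 to 2.35 ± 0.241 CPM and the cystine transporter gene Slc7a11 from 6.86 ± 0.354 to 0.540 ± 0.267 CPM. Slc7a11 stood at −1.92 between DKO and wild-type ESCs. Atf4 itself stood at 317, 332 and 328 CPM in wild-type and 529, 514 and 524 CPM in TKO libraries (0.68, not called), and Atf3 rose (1.99). Of 17 genes of the NRF2 response and glutathione synthesis 8 fell and 2 rose (median −0.69). The glutathione synthesis subunit Gclm fell (−2.08) and the heme oxygenase gene Hmox1 rose (1.33).

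Immediate early genes and NF-kB genes rose. Immediate early genes answer a stimulus without new protein synthesis, and NF-kB factors drive inflammatory genes. Of 18 immediate early genes 11 rose and 1 fell (median 1.40), and of 8 NF-kB genes 6 rose and 0 fell (median 1.597). Klf10, a TGF-β-inducible zinc finger factor (ENSMUSG00000037465, chromosome 15, 38291463 to 38300706), went from 51.3, 52.2 and 50.2 CPM to 707, 721 and 691 CPM (3.78, adjusted p = 9.95e-25). Jun went from 19.7 ± 1.0002 to 157 ± 6.93 CPM, Fos from 2.03 ± 0.163 to 14.2 ± 0.0689 CPM, Fosb rose by 3.26 and Egr2 by 3.46, while Ier3 fell (−2.78). The NF-kB subunit gene Relb went from 20.3, 20.4 and 18.9 CPM to 207, 214 and 209 CPM (3.40, adjusted p = 1.30e-21). Its partner Nfkb2 rose from 33.5 ± 2.55 to 115 ± 3.68 CPM, the feedback inhibitor Tnfaip3 (A20) from 2.28 ± 0.119 to 73.3 ± 2.69 CPM and the adhesion receptor Icam1 from 20.7 ± 1.38 to 166 ± 4.86 CPM. The chemokine gene Cxcl2 was silent in wild type and at 1.15, 1.22 and 1.08 CPM in TKO libraries, at least 7.49-fold higher, and Cxcl1, with 3 counts in the wild-type libraries together, stood at 4.13, 5.73 and 3.79 CPM.

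Interferon genes were mixed, with 7 of 14 lower and 2 higher (median −1.01). The sensor of Z-form nucleic acid Zbp1 stood at 4.67, 4.10 and 5.59 CPM in wild-type libraries and had 1 count in the TKO libraries together, while Mx2 (3.62) and the chemokine gene Cxcl10 (3.79) were higher. Cxcl10 stood at 2.73 between DKO and wild-type ESCs. Of 21 p53 target genes 7 rose and 0 fell (median 0.57). Mdm2, which encodes the ligase that degrades p53, rose from 122 ± 1.75 to 451 ± 4.34 CPM, Plk2 from 29.3 ± 0.862 to 142 ± 4.46 CPM and the low-level death receptor gene Fas from 0.204 ± 0.180 to 0.938 ± 0.453 CPM. Cdkn1a, which encodes p21, stood at 31.2, 27.9 and 28.1 CPM in wild-type and 52.1, 52.3 and 58.6 CPM in TKO libraries and was not called (0.90, and 1.15 and called with library totals alone). Of 15 apoptosis regulators 1 rose, Casp8 (1.51), and 3 fell, among them Bmf (−1.44). Casp8 stood at 1.61 between DKO and wild-type ESCs and at −0.12 between TKO and DKO cells. Of 19 lysosome and autophagy genes 7 rose and 4 fell (median 0.044). The hexosaminidase subunit gene Hexa went from 48.0, 45.4 and 45.03 CPM to 471, 466 and 465 CPM (3.34, adjusted p = 1.40e-23) and Gpnmb rose from 3.97 ± 1.56 to 51.7 ± 0.949 CPM.

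Few cell cycle genes were called. Of 20 S phase genes 1 rose and 2 fell, of 20 genes of G2 and mitosis 0 rose and 2 fell (median −0.025), and of 16 genes of G1 1 rose and 3 fell. With library totals alone 0 S phase genes and 0 genes of G2 and mitosis were called lower, and the G1 genes called higher went from 2 to 5 of all tested. Pcna stood at −0.89 and was not called, though it was called lower against set B (−1.02), whereas Cdk1 was called lower at −1.11, a call lost at −0.86 with library totals alone. The CDK inhibitor genes Cdkn2c (3.20) and Cdkn2a (1.43) rose from low levels, whereas Cdkn1c, an imprinted gene of the same inhibitors, fell from 87.9 ± 5.75 to 17.4 ± 0.910 CPM. Cdkn1c stood at −1.52 between DKO and wild-type ESCs.

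Genes of the extracellular matrix were more often lower than higher. Of 28 collagen genes 13 fell and 5 rose (median −0.89), and of 16 genes of basement membranes and integrins 9 fell and 1 rose (median −1.17). Col18a1 went from 671, 691 and 662 CPM to 68.3, 74.3 and 71.1 CPM (−3.24, adjusted p = 1.75e-23), and Fn1, which encodes fibronectin, from 1655, 1683 and 1647 CPM to 391, 391.8 and 369 CPM (−2.11, adjusted p = 1.36e-22). The linker protein gene Nid1 fell from 144 ± 3.04 to 29.4 ± 2.30 CPM. Of 14 epithelial adhesion genes 6 fell and 2 rose, with Jup, which encodes plakoglobin, at −1.62 and Rab25 at 2.13, Rab25 being higher still in DKO ESCs (2.73). Of 11 mesenchymal genes 5 rose and 3 fell, with the protease gene Mmp2 at −2.65. Of 17 genes of actin and its SRF control 1 rose and 3 fell. Of 18 axon guidance genes 2 rose and 5 fell, with the ligands Sema3a (3.70) and Ntn1 (−2.51) on either side.

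Feeder fibroblasts make matrix too, and the sum of their markers was lower in TKO libraries, with Thy1 the largest part of the wild-type sum. The 11 feeder markers summed to 26.8 to 27.8 CPM in wild-type and 11.2 to 11.95 CPM in TKO libraries, with Fap at 0 in all 6, and 5 of 9 genes in a wider fibroblast list fell while 1 rose. Col1a1 fell from 6.68 ± 0.525 to 2.18 ± 0.459 CPM and Thy1 from 15.3 ± 0.488 to 1.43 ± 0.285 CPM, while Col3a1 rose (2.55). Col28a1, a collagen gene that is not among the 11 markers, rose as well (4.59). Mean levels in wild-type and TKO libraries were 1.52 and 1.20 CPM for Col1a2 and 0.988 and 1.38 CPM for Pdgfrb. Feeder markers therefore did not move as 1 group. The part of feeder cells in the matrix genes was not tested. The 4 markers of blood and endothelium summed to 84.3 to 87.7 CPM in wild-type and 72.6 to 81.0 CPM in TKO libraries. Nearly all of that sum was Pecam1, at means of 85.4 and 74.5 CPM. Means in wild-type and TKO libraries were 0.0872 and 0.0784 CPM for Ptprc and 0.0505 and 0.0337 CPM for Hbb-bs. Cdh5 went the other way, at 0.0337 and 2.08 CPM.

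Genes of the machinery that HP1 works with were examined next. Of 6 H3K9 methyltransferase genes 1 fell and 0 rose (median −0.55). Ehmt1, which encodes GLP, went from 177, 179 and 181 CPM to 62.9, 57.1 and 54.1 CPM (−1.62, adjusted p = 8.92e-17). Setdb1 stood at 214, 228 and 215 CPM in wild-type and 150.5, 155 and 154 CPM in TKO libraries (−0.52), and Suv39h2 at 48.6, 49.0 and 43.2 CPM and 87.6, 86.5 and 86.4 CPM (0.89), and neither was called. Suv39h2 was called higher against set B (1.11) and with library totals alone (1.13). Of 15 cofactors of H3K9me3 silencing 4 fell and 1 rose (median −0.69). The imprint guardian Zfp57 fell from 369.9 ± 13.4 to 98.2 ± 3.08 CPM, the lamin B receptor gene Lbr from 238 ± 4.54 to 74.0 ± 2.46 CPM and the remodeller gene Atrx fell too, at −1.11 on the log2 scale, the last of these not called against set B (−0.74) or with library totals alone (−0.86). Atf7ip, which stabilises SETDB1, rose from 122 ± 2.15 to 269 ± 0.977 CPM. The corepressor gene Trim28 stood at −0.77 and was not called.

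Of 8 genes of DNA methylation and its removal 3 fell and 1 rose (median −0.79). Tet1, a dioxygenase that removes methylation, fell from 963 ± 1.16 to 233 ± 1.54 CPM, Dnmt3b from 672 ± 12.6 to 208 ± 1.97 CPM and the maintenance enzyme gene Dnmt1 from 425 ± 13.7 to 189 ± 6.30 CPM, with Dnmt1 at −0.92 and not called with library totals alone. Tet3 rose (1.12). Of 8 H3K9 demethylase genes 2 fell, among them Kdm4a (−1.499), and the testis demethylase Kdm4d rose from 0.122 ± 0.133 to 3.96 ± 0.538 CPM. In the noncanonical Polycomb complex PRC1.6, 1 of 13 genes rose and 2 fell (median −0.21). The one that rose was Mga, its DNA-binding subunit, from 481 ± 2.37 to 1161 ± 41.7 CPM, and E2f6 stood at 0.69 without a call. In PRC2 2 of 12 genes fell, the accessory subunits Jarid2 (−1.43) and Epop (−1.61), and 0 rose.

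Of 25 imprinted genes, expressed from 1 parental allele, 11 fell and 1 rose (median −0.50). The noncoding RNAs of the Dlk1-Meg3 region fell, Meg3 from 433, 443 and 448 CPM to 67.5, 69.7 and 67.3 CPM (−2.69) and Rian from 406 ± 1.28 to 54.2 ± 1.62 CPM. Between DKO and wild-type ESCs their differences were −0.61 and −0.68. Igf2r, the receptor that clears IGF2, rose from 153 ± 3.60 to 477 ± 12.8 CPM. H19 stood at 0.452, 0.304 and 0.369 CPM in wild-type and 14.6, 14.9 and 13.1 CPM in TKO libraries (5.22), yet it was higher still in DKO ESCs, by 6.33 over wild type. Its neighbour Igf2 was not called (−0.50), but against set B it was called lower, at −1.29.

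Changes ran together along chromosomes at 2 scales. Neighbouring tested genes formed 26 runs of at least 7 that were all called higher. There was 1 run of lower calls, the 13 genes on the mitochondrial genome. Runs were formed over all tested genes, also those that passed the filter only through TKO libraries and so had to be higher. The numbers of higher and lower runs therefore cannot be set against each other. The longest run, of 14 genes, was a histone cluster at chr3:96220361-96293969, and a run of 12 genes at chr13:21716422-21837530 held histone genes too. A run of 13 at chr8:19163520-20640703 held Gm21811 and 2610005L07Rik. Other runs were the Hoxa genes (10 genes, chr6:52102949-52249799), the Hoxb genes (10 genes, chr11:96099326-96759130), Zfp genes (10 genes, chr13:67288138-67451624) and the Zscan4 genes (9 genes, chr7:10794242-11614112). Most of these are families of related sequence that stand next to each other, so neighbours are not independent.

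Counts and medians by chromosome cover all tested genes, also those that passed the filter only through TKO libraries and so had to be higher. Over all genes tested between TKO and wild-type cells 25.1% were called higher and 17.1% lower. Of chromosomes 1 to 19 and X, chromosome 8 had the highest median. Its 926 tested genes had a median log2 difference of 0.52, against 0.00299 for all other genes, with 308 rises (33.3%) and 58 falls. In the comparison of TKO with DKO cells its median was 0.49, and between DKO and wild-type ESCs it was −0.00423. Among the same chromosomes, chromosome 6 came next with a median of 0.38, and 292 of its 848 genes rose (34.4%). The 14 tested genes of chromosome Y had a median of 0.985, and 7 of them were called higher. Chromosome 16 had a median of −0.30, but it had already −0.42 in DKO ESCs, with 53 lower and 5 higher calls of 461. Over all genes tested between DKO and wild-type ESCs 5.19% were lower and 2.96% higher. The rises of Lamp1 and Hmox1 were larger than the median of chromosome 8 on which they lie, and Klf2 and Mmp2 of the same chromosome fell.

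**Figure D4:**
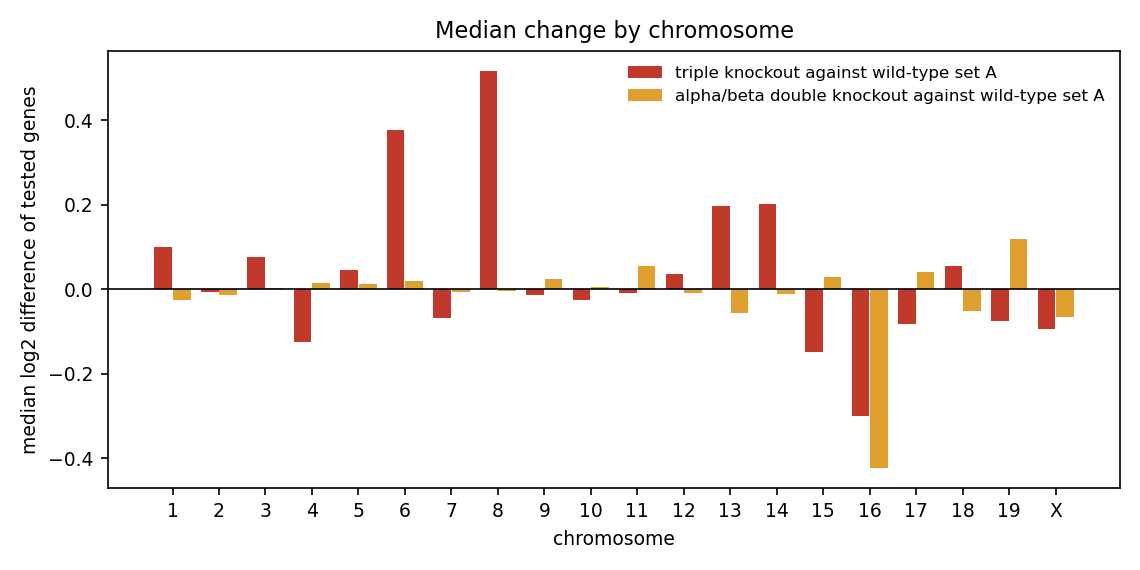
Median log2 difference of all tested genes of each chromosome (1 to 19 and X) for TKO against wild-type cells and for DKO against wild-type cells, which share the wild-type libraries. Chromosome 8 is highest for TKO cells at 0.52 and near 0 for DKO cells, and chromosome 16 is lowest for both.

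Promoters of groups that moved together, and of S phase genes, few of which were called, were searched for the sites that known regulators of these genes bind. The search used RefSeq windows of 300 bases (250 before to 50 after each gene's start, GRCm38.p6) on both strands. Of tested protein-coding genes 78.2% had a window, and a group was counted only where at least 80% of its tested genes had one. The letters were chosen after the expression values were seen. The NF-kB letters GGGACTTTC, GGGAATTTC or GGGAATTCC were in the windows of 5 of 9 NF-kB genes, and in 0.955% of all 27025 genes and 0.958% of the 11693 tested protein-coding genes with a window. The E-box CACGTG, which MGA and MAX bind, was in 9 of 16 germline and 5 of 15 meiosis genes, and in 8.09% of all and 11.4% of tested genes. The TATA box TATAAA was in 28 of 47 histone genes and in 15.7% of all and 9.35% of tested genes, and the hypoxia core ACGTG, contained in the E-box, in 13 of 18 hypoxia genes and in 21.8% of all and 28.4% of tested genes. E2F-like letters (TTTGGCGC, TTTCGCGC, TTTCCCGC or TTTGGCGG) were in 7 of 16 S phase and 2 of 16 germline genes, and in 2.70% of all and 4.798% of tested genes. A match is a description of these windows and not a bound site. One window for each of 4 groups is printed up to the start of the gene, with the matched letters in capitals, as an example of a gene that rose or fell.
Cxcl2 (chr5:90903649-90903898, plus strand, NF-kB letters, 97 bases before the start): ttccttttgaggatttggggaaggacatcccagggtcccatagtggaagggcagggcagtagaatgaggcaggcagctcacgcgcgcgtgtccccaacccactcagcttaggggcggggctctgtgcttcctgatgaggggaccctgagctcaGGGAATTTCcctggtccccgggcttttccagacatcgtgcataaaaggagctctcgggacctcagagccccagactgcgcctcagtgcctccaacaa
Taf7l (chrX:134476491-134476740, minus strand, E-box, 49 bases before the start): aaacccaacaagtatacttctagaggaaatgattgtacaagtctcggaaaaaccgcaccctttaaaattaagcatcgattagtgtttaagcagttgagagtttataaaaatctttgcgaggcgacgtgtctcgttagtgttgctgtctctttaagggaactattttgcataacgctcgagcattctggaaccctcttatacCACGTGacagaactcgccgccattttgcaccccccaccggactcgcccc
H1f5 (chr13:21780626-21780875, minus strand, TATA box, 28 bases before the start): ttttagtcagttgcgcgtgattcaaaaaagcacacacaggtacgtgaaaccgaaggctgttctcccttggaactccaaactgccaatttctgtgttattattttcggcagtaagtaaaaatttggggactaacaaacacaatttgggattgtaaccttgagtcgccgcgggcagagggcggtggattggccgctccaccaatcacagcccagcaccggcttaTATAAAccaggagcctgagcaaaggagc
Ldha (chr7:46845554-46845803, plus strand, ACGTG on either strand, 5 matches of which the first is 145 bases before the start): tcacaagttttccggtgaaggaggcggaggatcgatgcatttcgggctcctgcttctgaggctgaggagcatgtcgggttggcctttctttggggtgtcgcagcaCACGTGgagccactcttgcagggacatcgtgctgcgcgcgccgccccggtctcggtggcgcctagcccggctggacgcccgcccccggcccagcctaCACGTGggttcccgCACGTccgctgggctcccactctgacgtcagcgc
Cxcl2, Taf7l and H1f5 rose and Ldha fell, as given above.

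TKO cells were compared directly with DKO ESCs, which retain Hp1γ. The DKO cells were constitutive knockouts, whereas TKO cells were assayed 72 h after Cre. Loss of Hp1γ therefore cannot be told apart here from Cre transfection, its timing or differences between the lines. Of 17425 genes tested 7211 were called (41.4%), of which 4431 were higher (25.4%) and 2780 lower (16.0%) in TKO cells. Between DKO and wild-type ESCs 1292 of 15854 genes were called (8.15%), 469 higher (2.96%) and 823 lower (5.19%). The comparisons of DKO and TKO cells with wild type share their wild-type libraries, so their values are set side by side only. Over members with at least 10 counts in each DKO library, 25 of 29 histone genes, 12 of 14 germline genes and 13 of 16 olfactory receptor genes were higher in TKO than in DKO cells, against 15.9% of all such genes, with 18.7% lower. Of 23 Hox genes tested 0 had these counts, so no count is given for them. Of 21 hypoxia genes 20 were lower, of 14 cholesterol genes 11, of 14 general pluripotency genes 7 and of 16 naive genes 10, with 2 naive genes higher. Nanog stood at 418, 418 and 405 CPM in the DKO libraries, above both other genotypes, so its difference of −2.39 from DKO cells was larger than that from wild type (−1.498). Klf10 was at 78.4, 79.7 and 78.9 CPM and Relb at 18.5, 19.3 and 18.5 CPM in the DKO libraries, and the TKO libraries exceeded them by 3.14 and 3.47 on the log2 scale. Ldha was at 1380.5, 1445 and 1423 CPM in the DKO libraries and differed by −2.30. Of 18 clustered protocadherins 9 were higher and 0 lower, and of 10 trophoblast genes 0 were higher and 1 lower.

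The change in TKO cells was set against the change that loss of SETDB1, the main H3K9 trimethylation enzyme of euchromatin, made in Setdb1 knockout cells over floxed cells. These experiments share no library, and the difference of the changes was tested as an interaction over 12 libraries. The change differed for 5921 of 18569 genes (31.9%), being higher in TKO cells for 2861 (15.4%) and lower for 3060 (16.5%). In the Setdb1 experiment alone 4918 of 16457 genes were called (29.9%), 3048 higher (18.5%) and 1870 lower (11.4%). Counts over groups are again over members with at least 10 counts in each library of both control groups, of which 14.2% had a higher and 16.6% a lower change in TKO cells. Germline genes gained less in TKO cells, with a lower change for 12 of 13 germline and 9 of 13 meiosis genes and a higher one for 0. Ddx4 went from 23.3, 25.4 and 24.8 CPM to 501, 489 and 481 CPM with loss of SETDB1, a change of 4.33 against 1.25 in TKO cells (interaction −3.11, adjusted p = 1.02e-19). The changes of Tex101 were 10.24 and 4.997 (interaction −5.28), and those of Dazl 6.56 and 1.85 (interaction −4.74). Stra8 rose by 6.13 with loss of SETDB1 and was not called in TKO cells (interaction −5.33, adjusted p = 9.26e-15). Stag3 had like changes, 2.75 and 2.90, with an interaction of 0.13 (standard error 0.071) that was not called.

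Histone, immediate early and NF-kB genes gained more in TKO cells. The change was higher for 13 of 20 histone genes and lower for 0, higher for 11 of 16 immediate early genes and lower for 2, and higher for 6 of 7 NF-kB genes and lower for 0. H1f5 changed by 1.85 with loss of SETDB1 and by 5.72 in TKO cells (interaction 3.85). Klf10 went from 193, 190.1 and 185 CPM to 162, 161 and 162 CPM with loss of SETDB1 (−0.23) and rose only in TKO cells, with an interaction of 3.99 (adjusted p = 4.56e-26). Of 11 primitive endoderm genes 4 had a higher change in TKO cells and 0 a lower one. Gata4 stood at −0.49 with loss of SETDB1, with an interaction of 3.99.

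Of 21 hypoxia genes 2 had a higher and 4 a lower change in TKO cells. Ldha stood at −2.24 and −2.13 (interaction 0.08, standard error 0.028). Of pluripotency genes 7 of 14 had a lower change in TKO cells and 0 a higher one. Sox2 stood at 0.13 with loss of SETDB1 against −1.59 (interaction −1.75), and Nanog at −0.06 against −1.498 (interaction −1.46). Some genes moved in opposite ways. Lef1 rose by 4.27 with loss of SETDB1 and fell in TKO cells (interaction −6.60), and Kdr behaved likewise (2.04 and −2.41, interaction −4.48). Krt8 stood at −3.05 with loss of SETDB1 and rose in TKO cells over set A (interaction 4.14). The 2 experiments had separate controls, and the time since loss of SETDB1 was not matched by label to that since loss of HP1γ.

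**Figure D5:**
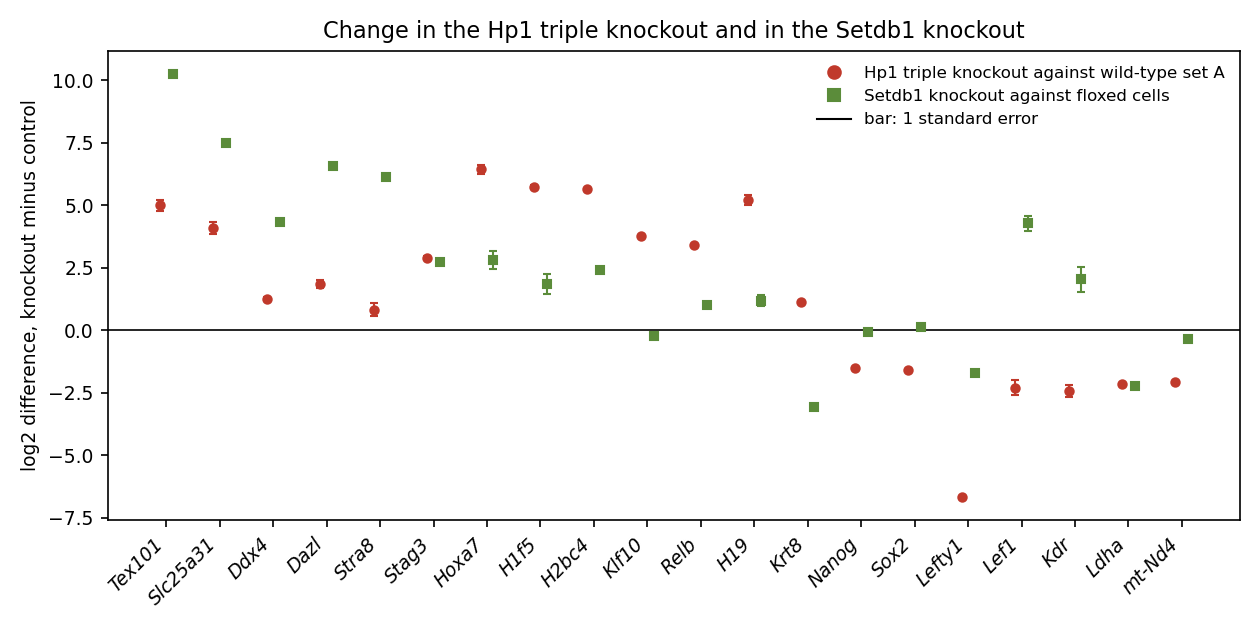
Log2 change (y axis) of 20 genes (x axis) in TKO against wild-type cells (circles) and in Setdb1 knockout against floxed cells (squares), with bars of 1 standard error. Germline genes lie higher for Setdb1 knockout, H1f5, H2bc4, Klf10 and Relb lie higher for TKO cells, and Lef1 and Kdr lie on opposite sides of 0.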

How the data were processed

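RNA-seq libraries were grouped by their labels, with 3 libraries a group, and each was read from the deposited table of its mutant and control. The authors deposited expected counts (estimated counts per gene), not normalized and mostly whole, and TPM. The submitters' processing notes name TopHat2 2.1.1, RSEM, edgeR and GRCm38.p5. Of the TPM columns deposited, 58 (of single libraries or means) were not used, nor were the authors' fold changes and adjusted p-values from DESeq2. Expected counts were rounded to whole numbers. Of 55487 genes 55227 matched GENCODE M21 (GRCm38) by identifier.

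Groups were compared in edgeR 4.0.16 (R 4.3.3, limma 3.58.1) with filterByExpr at a minimum count of 10, TMM scaling, and glmQLFit and glmQLFTest with Benjamini-Hochberg adjustment over all genes tested. CPM depends on the libraries of a fit, so values of DKO and Setdb1 libraries come from their own fits. The gene lists, and the members named, were chosen with earlier results of these data known. Named genes are Cbx5, Cbx1 and Cbx3, the 10 largest rises and falls by log2 difference among called genes with a proper symbol, separated groups and a mean of 5 CPM or more on the higher side, the 5 largest rises and falls in CPM, up to 2 called members of each list a direction with at least 1 CPM, and members that define a role. Some of them are not reported here. A gene with no count in a group was set against a floor of 3 counts in a library.

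The steps were tested on simulated counts drawn from the means of the real libraries, in which 200 genes were changed by 2 on the log2 scale. Of these, 100% were recovered for TKO against wild type (17501 genes, 3 unchanged genes called). The share was 99.5% against DKO cells (17425 genes, 4 unchanged called) and 99% for the interaction (18569 genes, 7 unchanged called). Few genes were changed, with rises and falls equal in number, so the simulation could not test TMM scaling under the many uneven calls of the real data. Alternatives were RLE size factors, DESeq2 1.42.0, other filters, the adjusted p alone, a replicate block, wild-type set B as the control, all libraries tabled with set A fitted together, and each library left out. Library totals with no TMM factors were chosen after seeing the data. Promoter windows were taken from RefSeq (GRCm38.p6) by symbol and guides from the study's table of oligonucleotides. ChIP-seq, proteins and cell assays were not analysed here.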

Additional observations from a re-analysis of the deposited data

Results flagged for a closer look

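The change in TKO cells against wild type differed from the change in Setdb1 knockout cells against floxed cells, by the interaction test over 12 libraries, for 5921 genes, and for named genes among them. The difference of the log2 changes (TKO minus Setdb1 knockout) was −4.99 for Lefty1, −1.72 for mt-Nd4, −1.46 for Nanog, −6.60 for Lef1 and −4.48 for Kdr. It was 4.14 for Krt8, 3.60 for Hoxa7, 3.85 for H1f5, 3.99 for Klf10 and 4.003 for H19. For germline and meiosis genes it was −5.28 for Tex101, −3.42 for Slc25a31, −3.11 for Ddx4, −4.74 for Dazl and −5.33 for Stra8. The control matters for a few of these, since against wild-type set B the change of mt-Nd4 in TKO cells was −0.15 and that of Krt8 0.37. Groups of 3 libraries were not searched for a library far from the others.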

How the results depend on the processing

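Of 202 named genes, 182 kept their direction and their call from edgeR's quasi-likelihood test in every alternative run but the adjusted p without the fold threshold, and 199 did so with each library left out in turn. The exceptions to the latter were Nodal, Stra8 and mt-Co3. Rn7sk was the only named gene whose called direction turned, at −1.34 against wild-type set B. The calls lost or gained with set B or with library totals alone stand beside each gene in the text. Among groups of genes, counts of all tested members called also moved by over 1.5 times. With library totals alone the members called lower went from 4 to 2 for cofactors of H3K9me3 silencing, from 2 to 1 for PRC1.6 and for mesoderm, from 3 to 1 for actin, from 2 to 0 for protocadherins and from 5 to 2 for cytochrome P450 genes, and those called higher from 2 to 5 for actin and from 1 to 2 for S phase and for apoptosis. With set B PRC1.6 went from 2 to 1 lower, and FGF and epithelial adhesion went from 2 to 1 higher. Leaving out 1 library moved Wnt targets from 2 to 4 higher (without wild-type replicate 3), and other such counts, of 2 genes or fewer, by 1 gene. Without the fold threshold the genes called rose from 7400 to 14283 for TKO against wild type and from 5921 to 12051 for the interaction, since genes of smaller change then count. Leaving out 1 library in turn gave 7485 to 7823 genes called for TKO against wild type, 7278 to 7685 against DKO cells and 5785 to 5943 for the interaction. Replicate numbers were not shown to pair the samples, since the correlations of the deviations of same-numbered TKO and wild-type libraries were −0.0418, −0.0189 and 0.0081. A fit with a replicate block called 7284, 7145 and 5734 genes in the 3 comparisons. Library totals with no TMM factors, chosen after seeing the data, gave 7313 calls with 71.39% higher for TKO against wild type (median 0.2826), and 74.62% higher against DKO cells (median 0.3118), in place of 59.47% and 61.45%. With no filter beyond 1 count 9105 of 30545 genes were called. At these depths 3 counts are 0.144 to 0.154 CPM, so genes below about that level were not measurable, and intervals against it cover counting error only.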
